A study of Mus musculus with 20 samples.

Results

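Macrophages are the main resident immune cells of skeletal muscle, and 10 genes that mark them were followed through sham surgery and mechanical overload (MOV) of the mouse plantaris under a control or a miR-1 mimic lentivirus. The genes were given as a list and were found by symbol, 10 of 54532 genes in the count tables. They comprised 5 general macrophage markers (Adgre1, Cd68, Csf1r, Itgam and Lyz2), 2 markers of resident-type cells (Mrc1 and Cd163) and the 3 genes of complement C1q (C1qa, C1qb and C1qc). All 10 had counts in all 20 libraries and all passed the filter on low counts in every comparison. The animals were male C57BL/6J mice aged 5 months, with no genetic change, and plantaris muscles were taken 10 days after surgery. In MOV part of the synergist muscles is cut away on both sides so that the plantaris carries more load, and sham mice had the same surgery with no muscle cut away. A left plantaris received the scramble control virus and a right plantaris the miR-1 mimic virus, both with a Turbo-GFP reporter under a mouse CMV promoter, so virus and body side cannot be told apart. The study used 10 mice, 5 with sham and 5 with MOV surgery on both sides, so the libraries of the 2 viruses come from the same animals, but the labels do not tie a library number to a mouse. Each of the 4 groups (control or mimic virus after sham surgery, control or mimic virus after MOV) held 5 libraries, made from total RNA of homogenized muscle samples.

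As background, macrophages of muscle depend on the receptor encoded by Csf1r for their survival, and in injured or loaded muscle monocytes from blood add to those already in place. Resident cells are known for scavenger receptors such as CD163, which takes up haemoglobin bound to haptoglobin, and for the mannose receptor encoded by Mrc1. C1q is the recognition part of the classical complement pathway, built from equal numbers of A, B and C chains, and in tissues it is made largely by macrophages. In RNA from homogenized muscle, fewer cells of a type and less RNA per cell cannot be told apart.

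The genes lie on 8 chromosomes, and the C1q genes lie side by side on chromosome 4 in the GRCm38.p6 annotation, with C1qb at chr4:136880126-136886200, C1qc at chr4:136889801-136892936 and C1qa at chr4:136895916-136898844. Mrc1 (chr2:14229414-14332023) holds the microRNA gene Mir511, and Adgre1, Csf1r and Cd163 overlap predicted genes whose reads could not be told apart from theirs, since no strand setting was given for the counting. RefSeq promoters were at hand for 7 of the 10 genes. PU.1, a transcription factor of myeloid cells, is known to bind purine-rich sites with GAGGAA, and this motif was searched on both strands (TTCCTC on the other) in the 250 bases before each start. It was found in 5 of the 7 promoters, those of Mrc1, Itgam, Cd68, C1qb and C1qc, and not in those of Cd163 and Lyz2. Of all 32851 RefSeq mouse promoters of that length, 23.3% held it. The promoters of C1qb and C1qc are shown because the levels of these genes had the highest correlation of all pairs across libraries, that of Cd68 as a general marker and that of Cd163 because its levels went their own way. Each is given 5′ to 3′ on the strand of the gene, ending at the last base before the start that RefSeq gives for the promoter (within the gene's outermost bounds for C1qc and Cd163), with every match in capitals. They are C1qb (chr4:136886201-136886450, minus strand), C1qc (chr4:136892915-136893164, minus strand), Cd68 (chr11:69666171-69666420, minus strand) and Cd163 (chr6:124304401-124304650, plus strand).
C1qb: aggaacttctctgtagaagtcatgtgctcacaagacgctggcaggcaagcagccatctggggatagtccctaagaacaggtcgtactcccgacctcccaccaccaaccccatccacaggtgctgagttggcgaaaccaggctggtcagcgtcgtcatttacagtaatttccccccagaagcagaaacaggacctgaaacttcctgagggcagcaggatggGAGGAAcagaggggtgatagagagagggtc
C1qc: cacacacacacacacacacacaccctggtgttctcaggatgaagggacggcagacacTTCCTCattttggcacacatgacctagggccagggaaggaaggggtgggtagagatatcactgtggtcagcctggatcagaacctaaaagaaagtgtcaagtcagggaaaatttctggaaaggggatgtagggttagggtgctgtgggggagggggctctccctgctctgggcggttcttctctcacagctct
Cd68: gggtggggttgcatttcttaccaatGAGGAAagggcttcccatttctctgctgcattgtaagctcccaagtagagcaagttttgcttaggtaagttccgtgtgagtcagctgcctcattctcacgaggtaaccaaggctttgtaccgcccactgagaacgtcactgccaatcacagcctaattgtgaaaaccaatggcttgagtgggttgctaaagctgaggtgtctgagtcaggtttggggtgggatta
Cd163: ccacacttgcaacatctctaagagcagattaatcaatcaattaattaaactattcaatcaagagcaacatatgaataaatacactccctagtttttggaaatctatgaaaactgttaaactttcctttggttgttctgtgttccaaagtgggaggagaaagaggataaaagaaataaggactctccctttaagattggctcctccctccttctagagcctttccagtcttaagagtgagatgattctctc
The first base of the match lay 30 bases before the start in C1qb, 193 before it in C1qc and 225 before it in Cd68. A match describes the letters only, and no binding was measured.

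The libraries held between 12036360 and 23056525 counts on genes. Itgam had the fewest counts of the 10 genes, 22 in sham control library 1, and Lyz2 the most, 12486 in sham mimic library 4. MOV mimic library 4 had the lowest total and 15561 genes with counts against 18768 to 22300 in the others. Sham library 1 of both viruses stood apart, with summed muscle fiber markers of 164844 and 164061 CPM against at most 138195 in any other library, and with the lowest summed pan-leukocyte markers (22.9 and 21.1 CPM). MOV control libraries 4 and 5 also stood apart within their group, with pan-leukocyte sums of 33.2 and 44.3 CPM against 87.9 to 102 in the other 3 and muscle fiber sums of 118718 and 138195 CPM against 76268 to 90589. Leaving out 1 library moved many of the smaller differences by more than 1.5 times, so their ranges on leaving out single libraries are given beside them or, where the sign turned, under the dependence on processing.

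Levels between genes were compared as CPM per kilobase of exon (CPM after TMM normalization). In sham control Lyz2, the gene of macrophage lysozyme, was the highest with 297 ± 138 (SD, n = 5). The C1q genes followed with 81.3 ± 32.8 for C1qb, 62.6 ± 23 for C1qa and 29.0 ± 9.51 for C1qc. Cd68, which codes for a lysosomal glycoprotein, was at 14.7 ± 7.36, Csf1r at 11.3 ± 4.37, Adgre1 (the F4/80 antigen) at 7.73 ± 3.17 and Mrc1 at 7.41 ± 3.18. Cd163 (2.85 ± 0.424) and Itgam (0.832 ± 0.406), which codes for the integrin chain CD11b, were the lowest. The order was steady from library to library at most steps. Lyz2 was above C1qb, C1qa above C1qc and C1qc above Cd68 in 20 of 20 libraries, Csf1r above Adgre1 and Mrc1 above Cd163 in 19, Cd163 above Itgam in 18, and C1qb above C1qa and Cd68 above Csf1r in 17. Adgre1 was above Mrc1 in 11 of 20, so that these neighbours had no order beyond their spread.

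**Figure D1:**
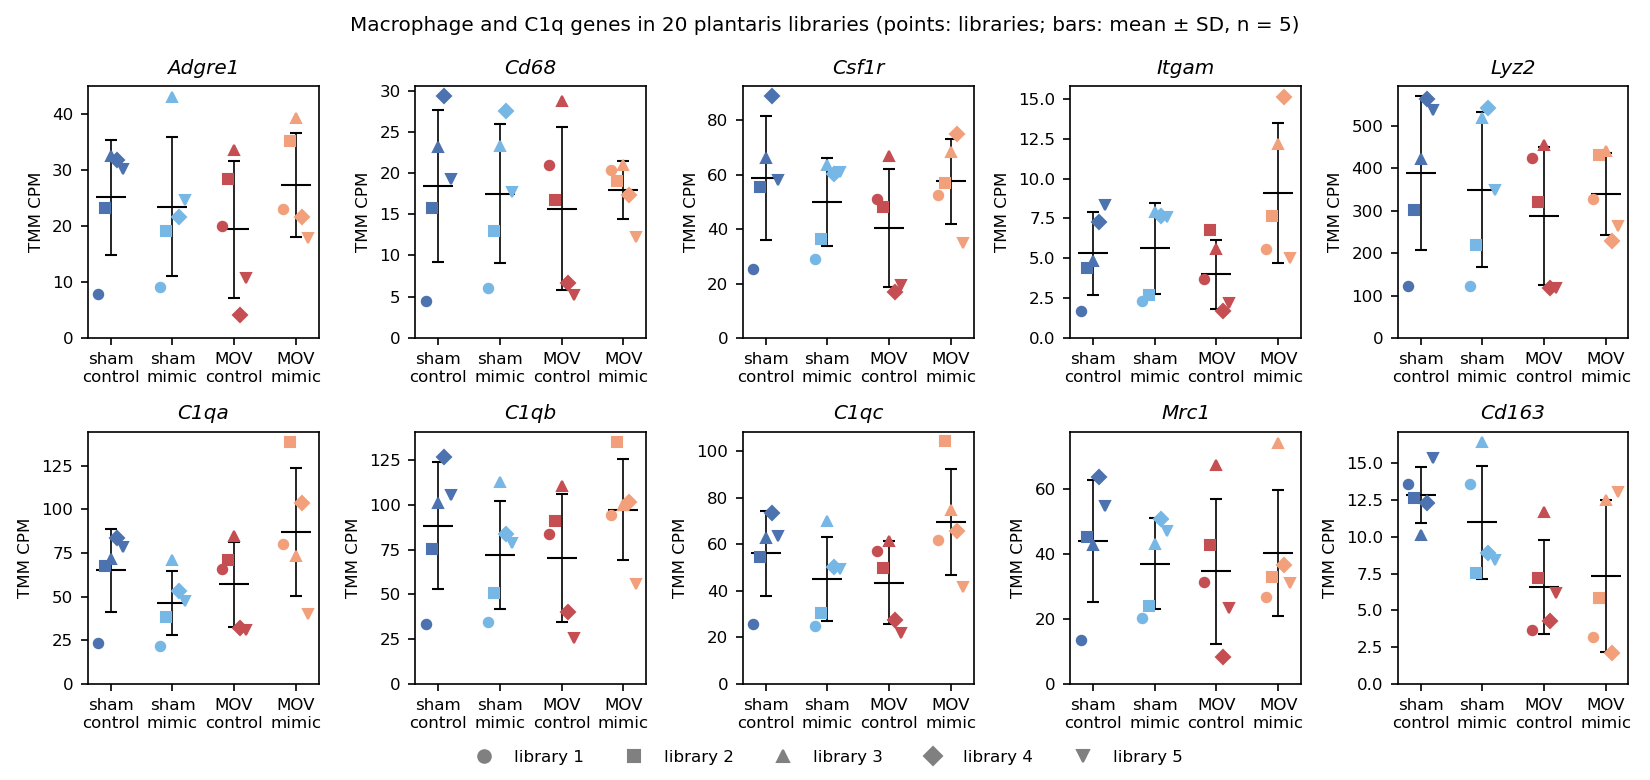
TMM-normalized CPM of the 10 genes (vertical axes, linear from 0) in the 20 libraries, by group, with a symbol for each library number and bars for mean ± SD (n = 5). Sham library 1 of both viruses and MOV control libraries 4 and 5 are low for 9 genes, while Cd163 is lower in 4 of 5 MOV control libraries than in any sham control library.

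The 9 genes other than Cd163 went up and down together from library to library. Over the 20 libraries the Pearson r of log2 CPM between pairs of these 9 genes had a median of 0.862, with a range from 0.664 for Mrc1 and C1qa to 0.972 for C1qb and C1qc. C1qa and C1qc had an r of 0.946, and Cd68 and Lyz2, both genes of the phagocytic lysosome, 0.952. Cd163 stood outside this pattern, with a median r of 0.0186 with the others and a range from -0.225 (C1qa) to 0.331 (Mrc1). On deviations from the group means the medians were 0.878 for pairs of the 9 genes and 0.0307 for Cd163. Without sham library 1 of both viruses and MOV control libraries 4 and 5, the median r between the 9 genes over the other 16 libraries was 0.604 (0.230 to 0.923), and that of Cd163 with them 0.0241 (-0.287 to 0.563), so that a large part of the common rise and fall rested on those 4 libraries. These correlations are a description, since the genes share libraries and depth. Sham library 1 shows the contrast in a single muscle. In the control virus Mrc1 was at 13.6 CPM there against 42.9 to 63.8 in the other 4 sham control libraries, while Cd163 was at 13.6 CPM against 10.2 to 15.4.

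**Figure D2:**
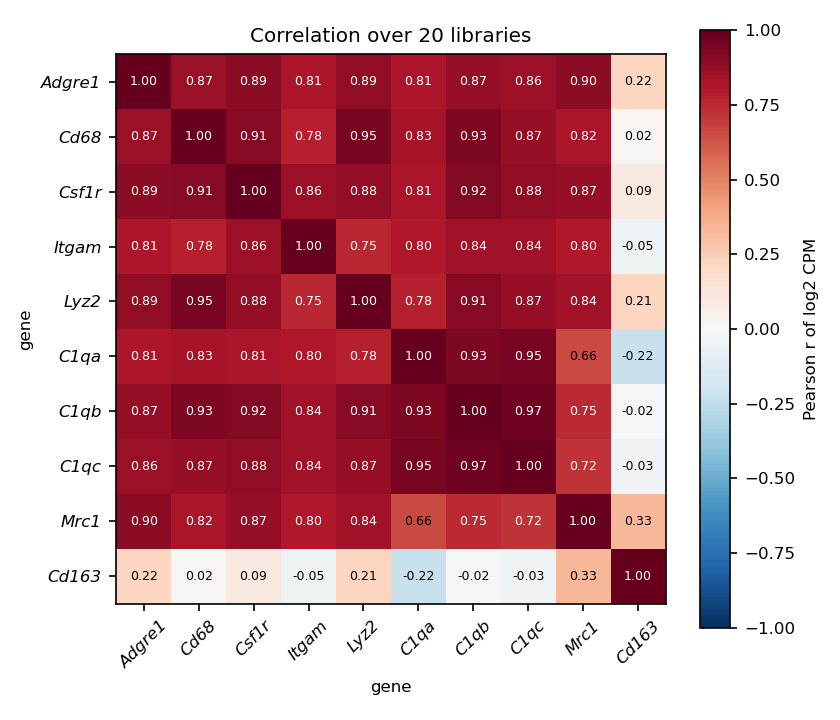
Pearson r of log2 CPM (prior count 2) between the 10 genes over 20 libraries, with genes on both axes and r printed in each cell and shown in color from -1 to 1. The row and the column of Cd163 are pale (-0.225 to 0.331), and all cells among the other 9 genes are at 0.664 or above.

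Outside the list, the genes whose log2 CPM went most closely with the mean of the standardised levels of the 10 genes over 20 libraries were Fcgr3 (r = 0.958), a low-affinity receptor for IgG, Ctsh (0.948), a lysosomal cathepsin, Arpc1b (0.936), Emp3 (0.932), ENSMUSG00000112023 (0.928), C1s1 (0.927), a protease of the C1 complex, Fcgr2b (0.925), C3ar1 (0.918), the receptor of the C3a fragment, Serpinf1 (0.917) and Apobec1 (0.915). On deviations from the group means the highest were Lipa (0.961), the lysosomal acid lipase, Serpinf1 (0.960), Fcgr3 (0.959), Lcp1 (0.956) and Apobec1 (0.950). Fcgr3, Serpinf1 and Apobec1 were in both sets. These values include the 4 libraries that stand apart.

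The question of the first comparison was how overload alone changed the macrophage genes, with MOV control set against sham control. All 10 genes had a log2 fold change below 0, and Cd163 had the largest difference. Cd163 was at 13.6, 12.7, 10.2, 12.3 and 15.4 CPM in sham control libraries 1 to 5 and at 3.69, 7.19, 11.7, 4.26 and 6.15 CPM in MOV control. The means were 12.8 ± 1.90 and 6.59 ± 3.17 CPM (SD, n = 5 each), and 4 of 5 MOV control libraries lay below the lowest sham control library, with library 3 the exception. Cd163 thus had a log2 fold change of -0.95 (SE 0.28), with an unadjusted p = 0.00507 and an adjusted p of 0.112 in edgeR's quasi-likelihood test, and DESeq2 gave an adjusted p of 0.0259. An exact permutation test on log2 CPM gave p = 0.0159 (two-sided, unadjusted, 1 of 40 such tests over the genes and comparisons, for which the smallest p that can be had is 0.00794). Without MOV control library 3 the log2 fold change was -1.26 with an adjusted p of 0.0668, and over all libraries left out in turn it ran from -1.26 to -0.80.

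For the remaining 9 genes the log2 fold changes of MOV control against sham control lay between -0.53 (Csf1r, SE 0.39) and -0.18 (C1qa, SE 0.34), each less than 2 standard errors from 0. Mrc1, the other resident-type marker, was at 13.6, 45.3, 42.9, 63.8 and 54.7 CPM in sham control and at 31.4, 42.8, 67.4, 8.20 and 23.5 CPM in MOV control, so that the range of MOV control took in the whole range of sham control. Its log2 fold change was -0.34 (SE 0.47, unadjusted p = 0.483 in edgeR). Csf1r was at 25.5, 55.6, 66.1, 89.1 and 58.0 CPM in sham control and at 51.3, 48.3, 67.0, 16.8 and 19.4 CPM in MOV control, where libraries 4 and 5 were the low ones. Without MOV control library 4 the log2 fold change of Mrc1 was -0.11 and that of Csf1r -0.36, and without sham control library 1 they were -0.57 and -0.72. Leaving out 1 library at a time, the value ran from -0.65 to -0.13 for Adgre1, from -0.67 to -0.18 for Itgam, from -0.66 to -0.24 for Lyz2, from -0.40 to -0.030 for C1qa, from -0.55 to -0.12 for C1qb and from -0.54 to -0.19 for C1qc. The part of the muscle fiber and leukocyte marker sums in these differences was not tested.

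Of the 10 genes edgeR called 0 at an adjusted p under 0.05, where 0.00668% of 14974 genes tested were called (Nos1 alone). At an unadjusted p under 0.05 it found 1 (Cd163), where 18.2% of all genes passed. DESeq2 called 1 (Cd163), where it called 6.1% of all genes. The log2 fold change was over 0 in 0 of the 10 genes and in 54.2% of all genes tested. In 0 of the 10 did the groups not overlap in CPM, against 4.9% of all genes. Lyz1, a close copy of Lyz2 whose reads could be split with it in counting, was low, at 5.21 ± 1.35 CPM in sham control and 1.30 ± 0.830 in MOV control (log2 fold change -1.97, SE 0.47, adjusted p = 0.0672 in edgeR). It is no member of the list and Lyz2 was at 389 ± 182 and 287 ± 163 CPM.

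**Figure D3:**
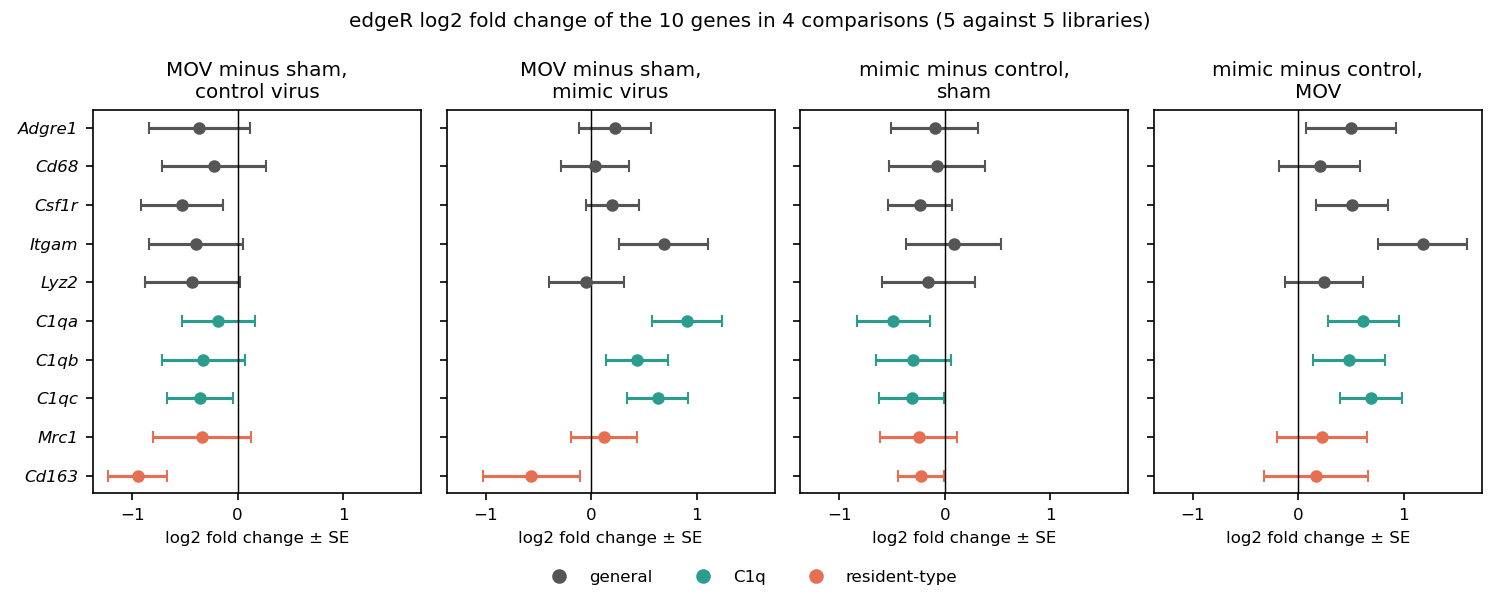
edgeR log2 fold change ± SE (horizontal axis) of the 10 genes (vertical axis) in the 4 comparisons of 5 against 5 libraries. All 10 points lie below 0 for MOV against sham under control virus, with Cd163 at -0.95, and all 10 lie above 0 for mimic against control in MOV, with Itgam at 1.18.

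Under the mimic virus, MOV against sham gave values above 0 for C1q and below 0 for Cd163. The question here was whether overload altered these genes when the mimic was present. C1qa was at 21.4, 38.0, 71.2, 53.4 and 47.6 CPM in sham mimic and at 80.0, 139, 73.1, 103 and 40.1 CPM in MOV mimic, with 4 of 5 MOV mimic libraries above the highest sham mimic library. Its log2 fold change was 0.91 (SE 0.33, p = 0.0173, adjusted p = 0.309 in edgeR), and an exact permutation test gave p = 0.0635 (two-sided, unadjusted). C1qc had a log2 fold change of 0.63 (SE 0.29, unadjusted p = 0.0473 in edgeR) and C1qb of 0.44 (SE 0.30, unadjusted p = 0.164). Without MOV mimic library 2, the highest of its group for all 3 chains, these were 0.67 for C1qa, 0.28 for C1qb and 0.43 for C1qc, and without sham mimic library 1 C1qb had 0.25. Cd163 was at 13.6, 7.54, 16.4, 8.89 and 8.45 CPM in sham mimic and at 3.19, 5.86, 12.5, 2.07 and 13.1 CPM in MOV mimic. Its difference was -0.57 on the log2 scale (SE 0.46, unadjusted p = 0.236 in edgeR), with 3 of 5 MOV mimic libraries below the lowest sham mimic library and the lowest of all in library 4, the one with the fewest counts. The value of Cd163 ran from -0.90 without MOV mimic library 5 to -0.33 without library 4. Mrc1 had a value of 0.12 (SE 0.32), and the 5 general markers lay between -0.05 (Lyz2) and 0.69 (Itgam). With each library left out the value ran from 0.012 to 0.56 for Adgre1, from 0.050 to 0.32 for Csf1r and from 0.43 to 0.84 for Itgam.

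edgeR called 0 of the 10 genes in this comparison at an adjusted p under 0.05, and 0.0% of 14918 genes. At an unadjusted p under 0.05 there were 2 (C1qa and C1qc), against 13.4% of all genes, and DESeq2 called 0 of the 10 and 1.49% of all. The log2 fold change was over 0 in 8 of the 10 and in 51.8% of all genes. In 0 of the 10 did the groups not overlap, against 2.73% of all genes. Of the lists of other leukocytes, some were higher in MOV mimic than in sham mimic, with all 4 pan-leukocyte genes, all 8 T cell genes and 4 of 6 monocyte genes tested at an unadjusted p under 0.05, of which DESeq2 called 4 T cell genes and 1 monocyte gene at an adjusted p under 0.05 and edgeR 0. The 2 neutrophil and 4 mast cell genes tested were all below 0, with medians of -2.09 and -0.52 and 0 at an unadjusted p under 0.05. The part of these lists in the values of C1q was not tested.

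The main question of the study's design was what the mimic did in overloaded muscle. Against MOV control, in MOV mimic the log2 fold change was over 0 for all 10 genes, led by Itgam and C1qc. Itgam was at 3.69, 6.75, 5.59, 1.72 and 2.22 CPM in MOV control and at 5.6, 7.65, 12.2, 15.1 and 5.01 CPM in MOV mimic, with 3 of 5 MOV mimic libraries above the highest MOV control library. The means were 3.99 ± 2.16 and 9.11 ± 4.38 CPM (SD, n = 5 each). Its log2 fold change was 1.18 (SE 0.42, p = 0.0146, adjusted p = 0.999 in edgeR) and an exact permutation test gave p = 0.0397. Without MOV mimic library 4, the shallowest, it was 0.93 (unadjusted p = 0.0453 in edgeR). Itgam is also carried by monocytes and granulocytes, as is Lyz2.

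C1qc and C1qa followed Itgam, while C1qb lay just below Csf1r and Adgre1. C1qc was at 57.2, 49.7, 61.3, 27.5 and 21.7 CPM in MOV control and at 62.0, 104, 74.6, 65.7 and 41.7 CPM in MOV mimic, with 4 of 5 MOV mimic libraries above the highest MOV control library. Its log2 fold change was 0.69 (SE 0.29, p = 0.0365, adjusted p = 0.999 in edgeR), with p = 0.0952 in the exact permutation test. DESeq2 with equal library numbers as a replicate block, a pairing the labels do not give, called C1qc (adjusted p = 0.0212), beside 0.834% of all genes. C1qa was at 65.8, 71.0, 84.9, 32.2 and 31.0 CPM in MOV control, with the difference to MOV mimic at 0.62 on the log2 scale (SE 0.33), and C1qb was at 83.6, 90.7, 111, 40.3 and 25.5 CPM, with a difference of 0.48 (SE 0.34). MOV control libraries 4 and 5 were the lowest for each of the 3 chains. Without MOV control library 5 the log2 fold change of C1qc was 0.51 and its unadjusted p 0.0765 in edgeR, and without MOV mimic library 2 they were 0.49 and 0.117. C1qb had 0.33 without MOV control library 4, 0.26 without library 5 and 0.33 without MOV mimic library 2, and C1qa ran from 0.38 to 0.80.

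Among the other general markers the log2 fold changes were 0.51 for Csf1r (SE 0.34), 0.50 for Adgre1 (SE 0.43), 0.25 for Lyz2 (SE 0.37) and 0.20 for Cd68 (SE 0.38). The resident-type markers had the smallest values beside Cd68, with 0.22 for Mrc1 (SE 0.43) and 0.17 for Cd163 (SE 0.49). Each of these 6 differences was smaller than 2 standard errors. Without MOV control library 4 the values were 0.31 for Csf1r, 0.24 for Adgre1, 0.046 for Lyz2, 0.0084 for Cd68 and 0.044 for Cd163. Without library 5 they were 0.33, 0.35, 0.045, -0.019 and 0.14 in the same order. The sign of Cd163 changed with the tool, to -0.08 with limma and voom, and so did that of Mrc1 without MOV mimic library 3 (-0.12).

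In this comparison edgeR called 0 of the 10 genes at an adjusted p under 0.05 and 0.0% of 15220 genes, and DESeq2 called 0 of the 10 and 0.0197% of all. At an unadjusted p under 0.05 there were 2 (Itgam and C1qc), against 4.21% of all genes. The log2 fold change was over 0 in 10 of the 10 and in 49.3% of all genes, and since 9 of the 10 genes vary together this count is not one of independent genes. In 0 of the 10 did the groups not overlap, against 0.762% of all genes.

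Some lists of other leukocytes were also higher in MOV mimic libraries than in MOV control, with 3 of 4 pan-leukocyte, 3 of 8 T cell and 4 of 7 monocyte genes higher at an unadjusted p under 0.05, beside 4.21% of all genes in either direction, and 0 called at an adjusted p under 0.05 in edgeR. DESeq2 with equal library numbers as a replicate block called 2 pan-leukocyte, 0 T cell and 1 monocyte gene, beside 0.834% of all genes. The summed CPM of 4 pan-leukocyte genes ran from 56.8 to 248 in MOV mimic against 33.2 to 102 in MOV control, with Ptprc at 54.2 ± 27.6 and 25.4 ± 11.2 CPM. The 8 T cell genes summed to 13.1 to 51.1 CPM against 3.37 to 20.4, and the 7 monocyte genes to 102 to 261 against 50.01 to 152. The 2 neutrophil genes tested had a median of -0.71 here. Of the pan-leukocyte, T cell and monocyte lists no gene was at 0 counts in every library. Their part in the values of Itgam and C1q was not tested.

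In sham muscle the comparison of mimic with control asked for an effect of the mimic without overload. The log2 fold changes lay between -0.49 (C1qa, SE 0.35) and 0.08 (Itgam, SE 0.45). Cd163 had a value of -0.22 (SE 0.22) and Mrc1 of -0.25 (SE 0.37). With a library left out Cd163 ran from -0.42 (without sham mimic library 3) to -0.11 (without sham mimic library 2) and Mrc1 from -0.48 (without sham control library 1) to -0.072 (without sham control library 4). The range was -0.71 to -0.31 for C1qa, -0.51 to -0.12 for C1qb, -0.53 to -0.16 for C1qc and -0.43 to -0.027 for Csf1r. edgeR called 0 of the 10 genes at an adjusted p under 0.05 and 0.0% of 14746 genes, 0 of the 10 at an unadjusted p under 0.05 against 1.72% of all, and DESeq2 called 0 of the 10 and 0.0% of all. The log2 fold change was over 0 in 1 of the 10 (Itgam) and in 50.2% of all genes, and in 0 of the 10 did the groups not overlap, against 0.339%. The 2 groups shared the low library 1, with Cd68 at 4.51 CPM under control and 6.09 CPM under mimic virus against 12.9 to 29.3 in the other 8 sham libraries.

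The interaction of surgery and virus over 20 libraries asked whether the difference between MOV and sham depended on the virus. It was above 0 on the log2 scale for all 10 genes, with 1.10 for C1qa (SE 0.52, unadjusted p = 0.0451), 1.09 for Itgam (SE 0.65, unadjusted p = 0.105) and 0.99 for C1qc (SE 0.46, unadjusted p = 0.0412) in edgeR. For the resident-type markers it was 0.46 (Mrc1, SE 0.61) and 0.37 (Cd163, SE 0.57). With a library left out Mrc1 ran from 0.12 (without MOV mimic library 3) to 0.85 (without MOV control library 3) and Cd163 from 0.060 (without MOV mimic library 5) to 0.69 (without MOV control library 3), while C1qa ran from 0.87 to 1.32, C1qc from 0.81 to 1.21 and Itgam from 0.85 to 1.37. edgeR called 0 of the 10 at an adjusted p under 0.05 and 0.0% of 16166 genes, and 2 (C1qa and C1qc) at an unadjusted p under 0.05 against 2.64% of all. DESeq2 called 0 of the 10 and 0.00619% of all genes. The value was over 0 in 10 of the 10 and in 48.0% of all genes.

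The resident-type markers were then set against the general markers within each library. The measure was the log2 ratio of the CPM of Mrc1 or Cd163 to the mean log2 CPM of Adgre1, Cd68, Csf1r, Itgam and Lyz2, given as a description with no test. Mrc1 kept close to this mean of the general markers, though not to each marker alone. Its ratio was 0.31 ± 0.17 (control) and 0.22 ± 0.27 (mimic) after sham surgery. After MOV it was 0.30 ± 0.48 (control) and 0.01 ± 0.41 (mimic) (SD, n = 5 each). Cd163 was at -1.31 ± 0.92 (control) and -1.50 ± 0.90 (mimic) after sham surgery and at -1.89 ± 0.84 (control) and -2.66 ± 1.25 (mimic) after MOV. The groups overlapped in every comparison of either ratio, and the difference of Cd163 between MOV control and sham control (-0.58) was smaller than the SD within the groups of this ratio. Since Cd163 shared little variation with the general markers, its ratio also carries their spread, and that SD does not describe the CPM of Cd163 alone. Without sham control library 1 that difference was -0.20, and without sham mimic library 1 the difference between MOV mimic and sham mimic went from -1.16 to -0.79. The ratio of Cd163 was highest in sham library 1, with 0.24 under control virus, since the general markers were low there and Cd163 was not. Cd163 relative to Mrc1 had the means -1.62, -1.72, -2.19 and -2.67 in the same order of groups, with overlap throughout, and its difference between MOV control and sham control went from -0.58 to -0.17 without sham control library 1. The mean of the C1q genes relative to the general markers was 1.00 ± 0.16, 0.73 ± 0.18, 1.14 ± 0.32 and 1.09 ± 0.34. Single general markers differed from their mean. After MOV, Mrc1 relative to Itgam alone was at 2.96 ± 0.55 (control) and 2.16 ± 0.55 (mimic), with overlap. That difference (-0.80) was larger than the SD within the groups. Relative to the other general markers it was -0.35 (Adgre1), -0.24 (Csf1r), -0.04 (Cd68) and -0.01 (Lyz2). Between MOV mimic and sham mimic, Mrc1 relative to Itgam differed by -0.64, again with overlap.

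**Figure D4:**
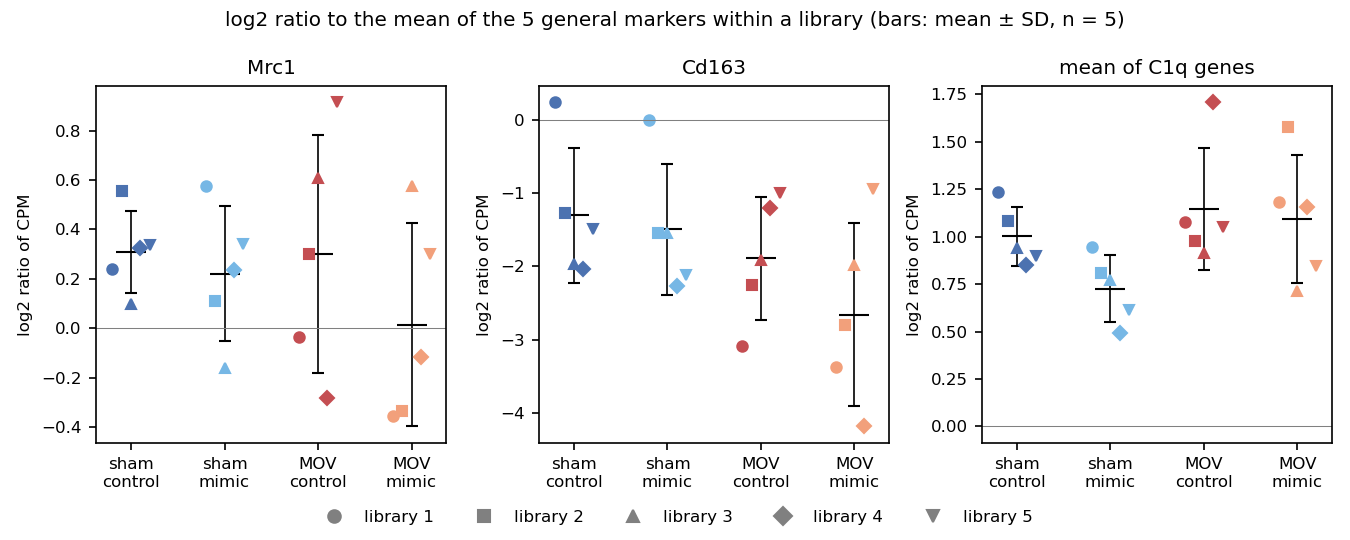
log2 ratio of the CPM of Mrc1, Cd163 and the mean of the C1q genes to the mean of the 5 general markers within each library (vertical axes, which differ between panels), by group, with bars for mean ± SD (n = 5). Mrc1 stays between -0.36 and 0.92, while Cd163 spans from -4.19 to 0.24 and the groups overlap.

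A wider list of resident-type genes lay mostly below 0 as well. Of 11 such genes 10 were tested in MOV control against sham control, 9 had a log2 fold change below 0, and the median was -0.72 against 0.04 over all genes tested. Of all genes tested 54.2% were over 0. edgeR called 0 of the 10, with 2 lower and 1 higher at an unadjusted p under 0.05, and DESeq2 called 2 lower, beside 18.2% and 6.1% of all genes. Those called were Fcna, a ficolin of macrophages, with a log2 fold change of -1.94 (SE 0.44, adjusted p = 0.0630 in edgeR) and Ccl24, an eosinophil-attracting chemokine, with -2.02 (SE 0.60, adjusted p = 0.116 in edgeR). Both were scarce, with Fcna at 1.53 ± 0.640 CPM in sham control and 0.389 ± 0.0978 in MOV control and Ccl24 at 1.46 ± 0.881 and 0.348 ± 0.190. Gas6, a ligand of receptors for the uptake of dead cells, had the opposite sign (0.47, SE 0.20, unadjusted p = 0.0340). The 5 general markers of the main list had a median of -0.40 with 0 above 0. In the same comparison 15 further general macrophage genes had a median of -0.05, with 7 above 0 and 0 passing an unadjusted p under 0.05 in edgeR, and DESeq2 called 0 of them. The 3 with the smallest p were Tyrobp (-0.51), Cd14 (-0.47) and Fcgr3 (-0.47). The lists differ in level and number, and the difference between them was not tested. The median of the same resident-type list was -0.40 in MOV mimic against sham mimic (10 tested) and -0.02 in MOV mimic against MOV control (8 tested), and that of the general list 0.71 and 0.72.

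The partners of C1q and the receptors of complement were followed as a list of 21 genes. In MOV control against sham control 19 were tested, 3 had a log2 fold change over 0, beside 54.2% of all genes, and the median was -0.33. At an unadjusted p under 0.05 edgeR had 4 lower and 0 higher, and DESeq2 called 1 lower, shares near the 18.2% and 6.1% of all genes. The gene called was C7, a part of the membrane attack complex. C7 was at 6.87 ± 3.27 CPM in sham control and 1.97 ± 1.07 in MOV control (log2 fold change -1.79, SE 0.44, adjusted p = 0.0708 in edgeR). C3, the central component on which all complement pathways meet, was at 133 ± 44.4 and 64.6 ± 38.2 CPM (-1.04, SE 0.40), and Serping1, the inhibitor of the C1 proteases, had -0.74 (SE 0.26). With the mimic in overloaded muscle (against MOV control) 14 of 19 were over 0, beside 49.3% of all genes, with a median of 0.35 against -0.01 over all genes. At an unadjusted p under 0.05, 5 were higher and 0 lower, beside 4.21% of all genes. Those with the smallest p were C3 (1.16, SE 0.40), Itgax (1.44, SE 0.49), a chain of complement receptor 4, and C2 (1.35, SE 0.48), the protease cleaved by the C1 complex. C3 was thus at 144 ± 48.6 CPM in MOV mimic. edgeR called 0 of these genes at an adjusted p under 0.05 in either comparison, and DESeq2 called 0 in the second, where a fit with equal library numbers as a replicate block called C3 (adjusted p = 1.3e-05), C4b and Serping1, beside 0.834% of all genes (0.0197% without the block).

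Signals that feed macrophages and the cells that replace them were also listed. Of 6 genes of colony-stimulating factors, their receptors and Tgfb1, 0 passed an unadjusted p under 0.05 in edgeR in MOV control against sham control, and DESeq2 called 0, with Csf1, the ligand of the receptor made from Csf1r, at -0.27 (SE 0.18), Il34, its second ligand, at 0.41 (SE 0.28) and Tgfb1 at 0.66 (SE 0.33), beside 18.2% and 6.1% of all genes. In MOV mimic against MOV control, where 4.21% of all genes passed it and 49.3% were over 0, 1 of the 6 passed, Csf2rb, the shared receptor chain for GM-CSF (0.79, SE 0.25, adjusted p = 0.999 in edgeR). Of 7 monocyte genes all had a log2 fold change over 0 there and 4 were higher at an unadjusted p under 0.05, among them Ly6c2 (1.78, SE 0.59), a surface antigen of blood monocytes, Ccr2 (1.05, SE 0.37), the receptor by which they enter tissue, and Plac8 (1.34, SE 0.50). Ccr2 was at 25.2 ± 12.4 CPM in MOV control and 52.1 ± 21.0 in MOV mimic. DESeq2 gave it an adjusted p of 0.568, and of 0.0103 with equal library numbers as a replicate block. Of 10 genes of lipid handling and phagolysosomes 1 was lower at an unadjusted p under 0.05 in MOV control against sham control, a smaller share than the 18.2% of all genes, Lpl (-1.41, SE 0.30, adjusted p = 0.0557 in edgeR), which DESeq2 called, and 1 was higher in MOV mimic against MOV control, Cd9 (0.45, SE 0.17).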

How the data were processed

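RNA was measured in 20 plantaris libraries. Per the submitters' notes the reads were trimmed (Trim Galore 0.6.10, cutadapt 4.4), aligned with HISAT2 2.0.5 and counted with featureCounts 1.5.0-p3, and the methods name GRCm38 as the build. Counts were deposited by the authors raw, for each Ensembl gene, neither normalized nor filtered, in one table for each virus. Strand and multi-mapping settings were not given in the sources used here.

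Symbols were matched for 32640 of 54532 identifiers through RefSeq (GRCm38.p6). Counts of the 10 libraries compared (20 for the interaction) were tested with the quasi-likelihood test of edgeR 4.0.16 (R 4.3.3) after filterByExpr and TMM, two-sided, with Benjamini-Hochberg adjustment over all genes tested and a threshold of 0.05. Alternatives were DESeq2 1.42.0, limma 3.58.1 with voom, other size factors and filters, a replicate block, all 20 libraries and each library left out. The SE of an edgeR log2 fold change was derived from the quasi-likelihood test. It is the absolute log2 fold change over the square root of the F statistic. CPM are TMM-scaled and log2 CPM have a prior count of 2. Single genes were also compared with exact permutation tests (252 rearrangements of 5 against 5 libraries), whose p-values are unadjusted. All libraries of a group differed beyond sampling noise (chi-square per gene 13.9 to 168 over 40 pairs). p-values measure the spread between the muscles of each group. Fits of mimic against control, of the interaction and of all 20 libraries take muscles as independent.

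The members and lists were chosen with earlier results of these data known. Named were the 10 members, up to 3 genes of each further list with the smallest p in MOV against sham under control virus and in MOV mimic against MOV control, the genes most like the members, and Lyz1. Nos1, and Itgam, C1qa and C1qc where they lead a comparison, were singled out after their values were seen. Per-kilobase levels used exon lengths of an older mouse annotation (GENCODE vM1). Promoters are from RefSeq. The mature miR-1 sequence and proteins were not used here. Python 3.11.15, scipy 1.17.1 and matplotlib 3.10.9 were used.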

Additional observations from a re-analysis of the deposited data

Results flagged for a closer look

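In sham control, library 1 lay far below the other 4 libraries of its group for 4 of the 10 genes, by Dixon's ratio (the gap to the nearest value over the whole range of log2 CPM, with a critical value of 0.71 for 5 libraries). It was at 7.86 CPM for Adgre1 (ratio 0.764), 13.6 CPM for Mrc1 (0.743), 23.7 CPM for C1qa (0.833) and 25.5 CPM for C1qc (0.718). These were 4 of 40 groups of values tested, and chance marks about 1 in 20. The 4 genes are not independent, since they vary together over the libraries. The same library had the highest summed muscle fiber markers of all 20 (164844 CPM) and a pan-leukocyte sum of 22.9 CPM. Cd163 was at 13.6 CPM in it, within the range of its group. Without it the log2 fold change of MOV control against sham control was -0.93 for Cd163 and -0.57 for Mrc1.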

How the results depend on the processing

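The number of genes called depended on the tool and the filter. In MOV control against sham control edgeR called 1 gene, limma with voom 2, all 20 libraries 36, at least 10 counts in total 163, no filter 388 and DESeq2 913, and with a library left out the count ran from 0 to 426 (426 without sham control library 3, 318 without MOV control library 5). In MOV mimic against sham mimic edgeR called 0, no filter 1, all 20 libraries 3 and DESeq2 223, and with a library left out 0 to 101 (101 without MOV mimic library 5). In MOV mimic against MOV control edgeR called 0, all 20 libraries 1 and DESeq2 3. For the interaction edgeR called 0 and DESeq2 1. The cause was not tested. Equal library numbers as a replicate block left edgeR's counts at 1 and 0 and gave 722, 114, 127 and 5 calls in DESeq2 in the same order of comparisons. The labels do not say that equal numbers mark 1 mouse, and the data leave the pairing unsettled: the correlation of deviations from the group means between left and right muscles of equal number was 0.00663 to 0.776 in sham and 0.0735 to 0.399 in MOV (means 0.303 and 0.234, against -0.0637 and -0.0556 for unequal numbers), and 0.434 to 0.863 for each of the 10 genes over 10 numbers, with 3 of 5 MOV control, all 5 MOV mimic, 2 of 5 sham control and 3 of 5 sham mimic libraries closest to their own number. Between sham and MOV, equal numbers join different mice, so the block has no basis in the design there. With the replicate block DESeq2 called Cd163 in MOV control against sham control (adjusted p = 0.0237) and C1qc in MOV mimic against MOV control (0.0212, log2 fold change 0.74). In the latter it also called 3 other complement, 2 pan-leukocyte, 1 monocyte and 1 dendritic cell gene of the further lists. With Cd163 in DESeq2 without the block, Cd163 and C1qc had the only calls of the 10 genes under these settings.

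Of the log2 fold changes of the 10 genes, 379 values under the other settings and 570 with a library left out kept their sign and their side of the threshold, 8 and 30 turned sign and 3 passed the threshold. In MOV mimic against sham mimic Cd68 was -0.0075 with no filter, and Lyz2 was 0.12 with voom and 0.11 with the replicate block in either tool. In MOV mimic against MOV control Cd163 was -0.080 with voom and -0.043 and -0.042 with the replicate block in edgeR and DESeq2, and in sham mimic against sham control Cd68 was 0.0034 with voom. With a library left out, Cd68 in MOV control against sham control ran from -0.56 to 0.0010. Under the mimic Cd68 (MOV against sham) ran from -0.18 to 0.26, Lyz2 from -0.27 to 0.17 and Mrc1 from -0.22 to 0.26. For MOV mimic against MOV control Cd68 ran from -0.019 to 0.53, Mrc1 from -0.12 to 0.60 and Cd163 from -0.16 to 0.47. In sham mimic against sham control Adgre1 ran from -0.43 to 0.11, Cd68 from -0.32 to 0.16, Itgam from -0.14 to 0.30 and Lyz2 from -0.39 to 0.062. Without the 4 libraries that stand apart the median r between the 9 genes other than Cd163 fell from 0.862 to 0.604, and leaving out any 1 library moved no ratio to the mean of the general markers by more than 1 SD (both tried after the values were seen). A prior count of 0.5 moved no ratio by more than 1 SD and no exact test across 0.05, the latter tried after the values were seen. With 5 libraries a group, the SD within groups was 14.9% to 70.4% of the mean CPM for the 10 genes, which limits the precision of every fold change.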

Other observations

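Further cell type lists were read beside the macrophage genes, with edgeR calling 0 genes of any of them at an adjusted p under 0.05 in any comparison. DESeq2 called some of them in MOV control against sham control, among the genes named here Hba-a1 (adjusted p = 0.0185), Kdr (0.00804) and Pax7 (0.00369), beside 6.1% of all genes, and also Myh4 of the muscle fiber genes (2.46e-06). The muscle fiber genes went both ways, with 2 of 6 over 0. Myh4 had a log2 fold change of -1.59 (SE 0.30) and Myh1 of 0.84 (SE 0.33, unadjusted p = 0.0238 in edgeR). In MOV control against sham control, where 18.2% of all genes had an unadjusted p under 0.05, both red blood cell genes that could be matched had values below 0, while Hbb-bs matched no identifier. Hba-a1, the alpha chain of haemoglobin, was at 54.3 ± 19.4 CPM in sham control and 22.0 ± 14.7 in MOV control (log2 fold change -1.30, SE 0.39, unadjusted p = 0.00581), and Alas2, the first enzyme of haem synthesis in red cells, had -1.32 (SE 0.55, unadjusted p = 0.0317). The endothelial marker Kdr was at 52.6 ± 11.8 and 30.0 ± 8.55 CPM (-0.80, SE 0.20), and Dcn, a matrix gene of fibroblasts, at 639 ± 158 and 356 ± 166 CPM (-0.84, SE 0.30). Pax7, which marks satellite cells, had the opposite sign, at 3.79 ± 0.957 and 8.53 ± 3.15 CPM (1.17, SE 0.27). Of 3 adipocyte genes tested 1 was lower at an unadjusted p under 0.05, with a median of -1.65. Of mast cell genes Tpsb2 had -2.17 (SE 0.76) at 1.84 ± 1.12 CPM in sham control. What these values share with those of Cd163 was not tested.

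Under the mimic in overloaded muscle, other leukocyte lists had median log2 fold changes of 1.24 (8 T cell genes), 1.19 (3 NK cell genes tested), 0.83 (2 B cell genes tested) and 0.72 (6 dendritic cell genes). Of the dendritic cell genes 4 were over 0, 2 were below 0 and 1 had an unadjusted p under 0.05, Clec9a. DESeq2 with equal library numbers as a replicate block called 1 dendritic cell gene higher, beside 0.834% of all genes. Clec9a, which marks cross-presenting dendritic cells, was at 1.51 ± 0.663 CPM with control and 4.87 ± 2.79 with mimic virus (1.69, SE 0.52, unadjusted p = 0.00608), and Cd8a at 1.63 ± 0.983 and 4.93 ± 2.32 CPM (1.58, SE 0.57, unadjusted p = 0.0153). Of 6 neutrophil genes 2 could be tested, with S100a9 at 1.26 ± 1.34 CPM in MOV control and 0.744 ± 0.71 with the mimic (-0.77, SE 1.01). The 5 fibroblast, 4 tendon, 4 endothelial and 6 muscle fiber genes had 0 with an unadjusted p under 0.05, where 4.21% of all genes passed, so the count says nothing particular about these lists.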
